A study of Sus scrofa domesticus with 2 samples.

Results

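Among endothelial cells (ECs) grown from pig lung, a small set carried many transcripts of genes that interferons switch on. These cells were selected on their own transcripts. A lung EC belonged to the set when it held 3 or more unique molecular identifiers (UMIs, each standing for 1 captured transcript) of CXCL10, RSAD2, IFIT1 and IFIT2 summed, and it is called a member below. The rule found 400 members among 5169 kept lung ECs, a share of 7.74% with an exact binomial 95% interval of 7.02% to 8.50%. The lung library held 5946 cells, and the whole series held 7131 cells. Members were compared with 3308 kept lung ECs that had 0 UMIs of the 4 genes, called comparison cells. The other 1461 kept cells had 1 or 2 UMIs and belonged to neither group.

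The study grew primary ECs of Sus scrofa domesticus from the lung and from the aorta near to it, and there was 1 single-cell library for each. Perfused lung was treated with collagenase, and what came loose was grown in medium containing fetal calf serum, with no sort for ECs named in the methods. No interferon, virus or other agent is named in the labels for members, comparison cells or aorta cells. The methods give pigs aged 6 months, hybrids of Landrace, Large White and Duroc, as the source of the tissues for single-cell libraries, and the number of animals behind the cultures is not given in the sources used here. A kept cell had more than 200 and fewer than 5000 detected genes, under 30% of UMIs from 13 mitochondrial genes, 3 or more UMIs of PECAM1, which encodes the endothelial surface protein CD31, and at most 2 UMIs of COL1A1 and COL1A2 summed.

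Interferons are signal proteins that cells release when they sense foreign nucleic acid. Type I and type III interferons act through JAK kinases on transcription factors that bind the interferon-stimulated response element (ISRE) in promoters and switch on a shared set of antiviral genes. Interferon gamma acts mainly at another element, the GAS site, and raises guanylate binding proteins, antigen presentation genes and the chemokine CXCL10. In endothelial cells, which line the vessel wall, the response is known to include antiviral defence, display of antigen and recruitment of T cells.

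The promoters of the 4 genes that chose the members are shown first, since the ISRE is the element these genes are known for. The search used the ISRE core, GAAA, any pair of bases (NN) and GAAA, on both strands, from 250 bases before to 50 bases after each RefSeq gene start on Sscrofa11.1. The core was present at all 4 of these genes. It was present at 691 of 19452 promoters of the same length (3.55%). Below, each stretch reads 5′ to 3′ on the strand of its gene, and capitals mark the core or its reverse complement. ISG15, OAS2 and USP18 are added as genes that the rule did not use.

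CXCL10, chr8:71696144-71696193, minus strand: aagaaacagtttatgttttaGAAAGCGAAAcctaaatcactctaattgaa
RSAD2, chr3:128897910-128897959, minus strand: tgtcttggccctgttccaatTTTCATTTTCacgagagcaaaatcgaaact
IFIT1, chr14:101237384-101237413, plus strand: cctactttaaTTTCACTTTCtactttcagt
IFIT2, chr14:101193441-101193470, plus strand: ttcactttccagTTTCAATTTCTCTTTCct
ISG15, chr6:63363047-63363122, plus strand: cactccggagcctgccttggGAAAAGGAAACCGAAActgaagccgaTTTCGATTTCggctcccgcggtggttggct
OAS2, chr14:38847698-38847735, minus strand: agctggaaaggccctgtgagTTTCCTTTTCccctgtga
USP18, chr5:70183158-70183207, plus strand: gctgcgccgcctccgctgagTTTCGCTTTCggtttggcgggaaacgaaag

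Counted from the annotated gene start as 0, the first base of the core lay at -225 in CXCL10, -130 in RSAD2 and -9 in IFIT1. In IFIT2 the 2 overlapping matches began at 32 and 38, inside the annotated transcript. ISG15 held 3 matches, the first at -134. OAS2 and USP18 held 1 each, at -18 and -143. The windows of MX1, MX2, DDX58 and CCL5 held no match, which says only that these letters were not in those windows.

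The 4 genes did not contribute alike, and their values are a description, since they chose the cells. IFIT1, which encodes a protein that binds viral RNA lacking the cap marks of the host, had 484 CPM (UMIs of a gene per 1000000 UMIs of the pooled cells; exact Poisson 95% interval 464 to 505) in members and a UMI in 97.25% of them. RSAD2, which encodes viperin, an enzyme that makes a chain-ending nucleotide, had 271 CPM (256 to 287) and a UMI in 62.5%. CXCL10, a chemokine that attracts T cells and natural killer cells through CXCR3, had 248 CPM (234 to 263) but a UMI in only 22.0% of members. IFIT2, a partner of IFIT1, had 94.0 CPM (85.3 to 103) and a UMI in 37.25%. So IFIT1 was in nearly every member, while CXCL10 was rich in few of them. The 10% of members richest in CXCL10 held 90.1% of its UMIs, against 42.2% for IFIT1. All 4 genes were at 0 in comparison cells by the rule.

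**Figure D1:**
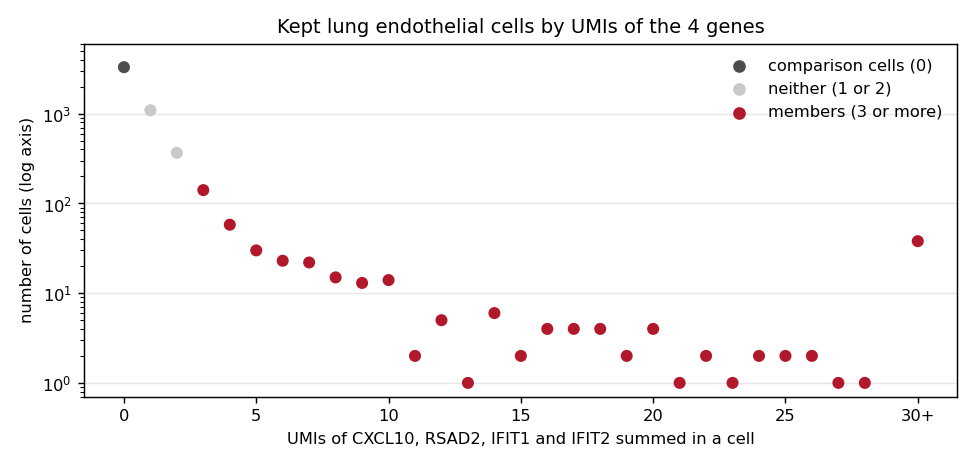
Number of kept lung ECs (log axis) against the UMIs of CXCL10, RSAD2, IFIT1 and IFIT2 summed in a cell, with 30 or more in the last point. The counts fall from 3308 cells with 0 UMIs to 141 cells with exactly 3, and the 400 members, drawn in red, reach far to the right with no gap at the limit of 3.

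The members ranged widely. Exactly 3 UMIs of the 4 genes were present in 141 members, 3 to 9 in 302 members and 10 or more in 98, and the highest cell held 265. UMIs of 1 of the 4 genes were seen in 90 members, of 2 in 180, of 3 in 94 and of all 4 in 36. Around the limit the levels passed smoothly from one side to the other. The summed level of 46 antiviral genes outside the rule was 4137 CPM in the 367 cells with exactly 2 UMIs and 5082 CPM in the 141 cells with exactly 3.

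Depth moved with membership. The median was 10742 UMIs and 3078 genes per member against 9224.5 UMIs and 2861 genes per comparison cell, and the share of members was 4.49%, 6.27%, 8.20% and 11.99% over 4 equal groups of kept cells from the shallowest to the deepest. After each cell was thinned to 5000 UMIs, 199 of 4890 cells (4.07%) still met the rule, with 279 shallower cells left out. The mitochondrial share was alike, with medians of 5.42% in members and 5.36% in comparison cells. Both libraries shared 5 cell barcodes, and 0 members were among them. Intervals here cover counting error only. With 1 library per vessel, cells are not replicates, so no test and no p-value is given.

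Endothelial genes other than PECAM1 stood at like levels in members and comparison cells. CDH5, the cadherin of endothelial junctions, stood at 157 and 158 CPM, and ECSCR, an endothelial surface receptor, at 624 and 622 CPM. The 24 endothelial markers without PECAM1 summed to 2591 and 2516 CPM, a fold of 1.03 (95% interval 1.01 to 1.05). PECAM1 itself stood at 1566 and 1599 CPM, and since every kept cell had to hold 3 or more of its UMIs, this says nothing of identity. VWF and KDR, which define many ECs in tissue, were nearly absent in both groups, with a UMI of VWF in 0.25% of members and 0.363% of comparison cells and a UMI of KDR in 0.75% and 1.66%.

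All genes called between members and comparison cells at the limits used here were higher in members. A gene was called higher when its pooled level was at least 2-fold higher in members and the 95% interval of the fold did not include 1. Only genes whose mean CPM over both groups was 10 or more were considered, and the 4 rule genes were not counted. Of 7370 genes, 85 were called higher (1.15%) and 0 were called lower at 0.5-fold or less (0%). The count of lower genes moved with the settings, and it was 60 after thinning to 5000 UMIs, 67 in the 2585 shallower cells and 49 at a mean CPM of 2 or more. The median fold of all these genes was 0.968, and the 5th and 95th percentiles were 0.742 and 1.32. At least a 4-fold difference was present for 28 genes. Symbols were known for 73 of the 85 genes, and 12 carried only an identifier.

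Genes listed as interferon-induced antiviral effectors, not all of whose products act on virus directly, made up the core of this set. Of 46 effector genes among the features, 39 passed the limit on level, 31 were called higher and 0 lower, beside 1.15% of all genes called higher. The median fold of the 46 was 2.65. Their summed level was 9441 CPM in members and 2462 CPM in comparison cells, 3.83-fold higher (3.79 to 3.88), and 2.87-fold higher (2.83 to 2.91) without ISG15. OAS1, IFIT3, IFITM1, IFITM2, XAF1, RTP4, SP100, IFI27 and IFI16 were on the list but not among the features under these names. This does not exclude that any of these genes is present as a feature under another name.

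ISG15, a small protein related to ubiquitin that is attached to newly made viral and host proteins, was the most abundant of them. It stood at 3023 CPM (2972 to 3074) in members and 229 CPM (224 to 234) in comparison cells, 13.2-fold higher (12.8 to 13.6). A UMI was present in 97.5% of members and 61.0% of comparison cells, and after thinning to 5000 UMIs in 90.9% and 46.3%. Cells with 20 or more collagen UMIs and under 3 PECAM1 UMIs, a non-endothelial population of the same culture, held an ISG15 UMI in 56.8% of 296 cells at a median depth of 10461 UMIs, a share within 5 percentage points of that in comparison cells. Per 10000 UMIs of a cell, ISG15 had a median of 16.5 in members, and 10% of members lay below 1.55 and 10% above 78.1. In comparison cells the median was 1.00 and the 90th percentile 5.77. The groups overlapped, with 297 of 400 members (74.2%; 69.7% to 78.5%) above that 90th percentile.

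Other effectors followed the same direction. MX1, a GTPase that traps viral nucleocapsids, stood at 283 CPM (268 to 299) against 35.3 CPM (33.2 to 37.4), 8.02-fold higher (7.40 to 8.70), with a UMI in 77.75% and 24.0% of cells. Its neighbour MX2 was 13.9-fold higher (12.5 to 15.4). OAS2, which makes the messenger that activates RNase L, was 7.87-fold higher (6.86 to 9.04). IFI6, a small membrane protein of the endoplasmic reticulum and mitochondria, rested on many UMIs, with 1108 CPM against 167 CPM, 6.62-fold (6.37 to 6.88). ISG12(A), an interferon gene of the IFI6 family, stood at 1046 against 173 CPM. CMPK2, a nucleotide kinase of mitochondria whose gene lies beside RSAD2 on chromosome 3, was 6.09-fold higher. Folds of EPSTI1, DDX60, IFI44 and UBE2L6, the last an enzyme that conjugates ISG15, were 5.48, 5.16, 4.69 and 4.58.

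Some effectors differed less. IFITM3, which blocks fusion of viruses in endosomes, was in 96.1% of comparison cells and was 2.09-fold higher (2.03 to 2.15) in members, at 1169 against 560 CPM. BST2, the tetherin that holds budding virus on the cell, was 2.76-fold higher (2.64 to 2.89). EIF2AK2, the RNA-sensing kinase PKR that stops translation, was 2.47-fold higher (2.26 to 2.70). LAP3, an aminopeptidase, stood at 120 and 118 CPM, 1.02-fold (0.926 to 1.11). OASL did not reach the limit on level, with a UMI in 4% of members and 0.0907% of comparison cells.

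**Figure D2:**
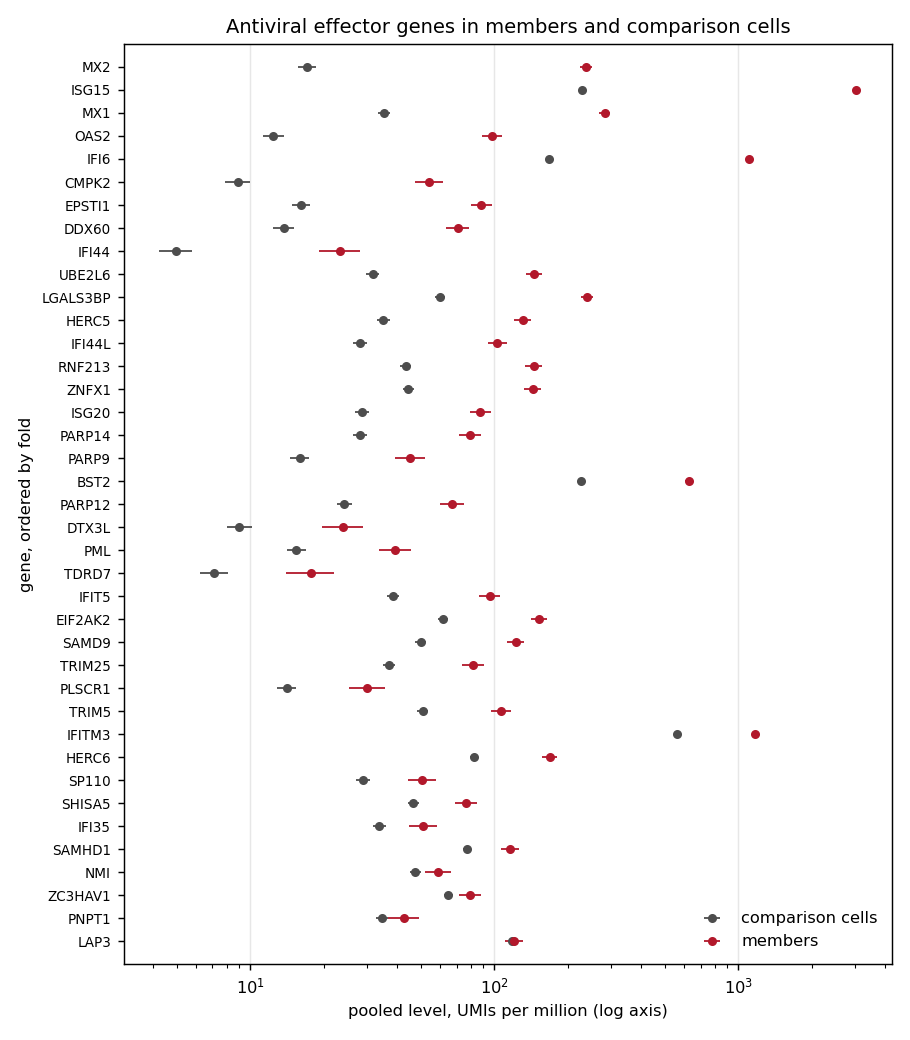
Pooled level in CPM (log axis) of the 39 antiviral effector genes that passed the limit on level, in members (red) and comparison cells (grey), with exact Poisson 95% intervals. Members lie to the right for all genes drawn except LAP3, where the points coincide, and ISG15 reaches 3023 CPM.

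Receptors inside the cell that detect viral RNA were among the most different genes. DDX58, which encodes RIG-I, stood at 249 CPM against 17.4 CPM, 14.3-fold higher (12.9 to 15.9), with a UMI in 68.25% and 13.1% of cells. IFIH1, which encodes MDA5, was 4.73-fold higher (4.18 to 5.34), and DHX58, which encodes LGP2, a regulator of both, was 7.11-fold higher (5.89 to 8.59). IRF7, the transcription factor that amplifies interferon production, was 7.21-fold higher (6.27 to 8.30). The parts of the pathway between these did not stand apart. MAVS, the adaptor of RIG-I and MDA5 on mitochondria, was at 1.05-fold (0.756 to 1.42), TBK1, the kinase below it, at 0.942-fold (0.761 to 1.15), IRF3 at 1.10-fold (0.971 to 1.25) and JAK1 at 1.06-fold (0.999 to 1.12). In all, 14 of the 18 genes of sensing and signalling passed the limit on level. Of these, 5 were called higher, beside 1.15% of all genes, and 0 lower.

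The interferon ligands found among the features were nearly silent. IFNB1, which encodes interferon beta, had 14 UMIs in the whole lung library, all in 4 members, and 11 of them came from 1 cell. That cell held 265 UMIs of the 4 genes, the highest of all kept cells, along with 57 UMIs of CXCL10 and 120 of CCL5. The other 3 cells held 1 IFNB1 UMI each and 19, 67 and 145 UMIs of the 4 genes. No IFNB1 UMI was seen in 3308 comparison cells, which allows a share of up to 0.0907% of cells with a UMI, nor in the 1461 cells with 1 or 2 UMIs. IFNA1, IFNE and IFNG had 0 UMIs in both groups. Of the receptor genes read, IFNAR1 was at 0.985-fold (0.839 to 1.15) and IFNGR1 at 0.961-fold (0.832 to 1.11), while IFNGR2 was at 1.26-fold (1.13 to 1.41). Of the 9 ligand and receptor genes among the features, only 4 passed the limit on level. Of these, 0 were called in either direction, beside 1.15% of all genes called higher. The type III ligands IFNL1 and IFNL3 and the receptor chain IFNAR2 were not among the features under these names, so they could not be read.

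Of 9 feedback inhibitors, 6 passed the limit on level. Only USP18 was called, beside 1.15% of all genes called higher. Of the 6, 2 had an interval wholly above 1 and 1 wholly below 1, beside 13.1% and 20.7% of all genes. USP18, which removes ISG15 from proteins and blocks signalling at the type I receptor, was 5.92-fold higher (4.95 to 7.08), at 51.5 against 8.69 CPM. TRIM38 was at 1.72-fold (1.44 to 2.04). SOCS1 and SOCS3 stayed below the limit on level, each with a UMI in 5% of members or fewer.

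Genes tied more closely to interferon gamma were higher in part. Of 15 such genes among the features, 7 passed the limit on level and 4 were called higher, beside 1.15% of all genes. GBP4, GBP5, GBP6, GBP7, SECTM1, APOL3 and APOL6 were on the list but not among the features under these names. GBP1 and GBP2, guanylate binding proteins that attack vacuoles of intracellular pathogens, were 3.41-fold (3.06 to 3.79) and 4.05-fold (3.11 to 5.25) higher. C1S and C1R, proteases that start the complement cascade, were 3.56-fold (3.05 to 4.15) and 2.51-fold (2.18 to 2.89) higher. IRF1 was at 1.58-fold (1.33 to 1.87) and WARS, a tRNA synthetase that interferon gamma is known to raise, at 1.06-fold (0.966 to 1.17). CXCL11, which shares its receptor with CXCL10, had a UMI in 8 members and in 0 comparison cells, and IDO1 had 0 UMIs in both groups.

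Antigen presentation moved less. Of 17 genes, 13 passed the limit on level, 3 were called higher, beside 1.15% of all genes, and 0 lower. The summed level was 4454 against 3268 CPM, 1.36-fold (1.34 to 1.38). TAP1, which pumps peptides into the endoplasmic reticulum for class I molecules, was 2.26-fold higher (2.04 to 2.50). B2M, the light chain of class I molecules, was at 1.57-fold (1.54 to 1.61) and PSMB9, a subunit of the immunoproteasome, at 1.57-fold (1.47 to 1.68). Of the class II genes, CD74, the invariant chain, was 2.79-fold higher (2.31 to 3.37) and SLA-DQB1 2.63-fold (1.95 to 3.50), both at 35.0 CPM or below in members. The class I heavy chain names SLA-1, SLA-2 and SLA-3 were not among the features and were not analysed here.

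Of 30 genes on a list of inflammatory NF-kB targets, 20 passed the limit on level. Of these, 2 were called higher, CCL5 and TNFSF10, beside 1.15% of all genes. A place on the list does not show what drove a gene in these cells. CCL5, a chemokine for T cells and monocytes that both NF-kB and interferon regulatory factors are known to drive, had the largest fold of all named genes, 41.1-fold (37.4 to 45.3), at 655 against 15.9 CPM. This rested on few cells. A CCL5 UMI was present in 22.5% of members and 6.02% of comparison cells, and 36 members held 10 or more, against 6 comparison cells. The 10% of members richest in CCL5 held 97.1% of the CCL5 UMIs, and 1 cell held 10.3% of them. TNFSF10, which encodes the death ligand TRAIL, was 8.15-fold higher (6.69 to 9.94), with a UMI in 24.75% and 5.32% of cells. Targets that mark activated endothelium had smaller folds, with VCAM1 at 1.13-fold (1.11 to 1.15), ICAM1 at 1.24-fold (1.16 to 1.33), CXCL8 at 1.11-fold (1.07 to 1.15) and NFKBIA at 1.10-fold (1.04 to 1.16). CCL2, a chemokine for monocytes, was at 1.23-fold (1.20 to 1.26) over all members. Its level was 1434 CPM in cells with 0 UMIs of the 4 genes, 1477 CPM in members with 3 to 9 and 2636 CPM in members with 10 or more.

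Among the 25 genes with the largest folds that were seen in at least 10% of members, some were not on the lists. PLAC8 was 4.28-fold higher (3.65 to 5.00). CTSL, which encodes the lysosomal protease cathepsin L, was 5.25-fold higher (4.40 to 6.27), with a UMI in 17.25% of members and 7.38% of comparison cells. GM2A, an activator of ganglioside breakdown in lysosomes, was 4.11-fold higher (3.33 to 5.06), and FBXO39, an F-box gene, was 5.40-fold higher (4.73 to 6.16). The genes without a symbol ENSSSCG00000033089 and ENSSSCG00000014618, were 15.4-fold (10.99 to 21.8) and 9.84-fold (8.02 to 12.1) higher. Further genes were chosen after their values were seen. SLPI, a protease inhibitor, was 2.99-fold higher (2.78 to 3.22), FGF2, a growth factor for endothelium, 2.30-fold (2.16 to 2.45) and ACOD1, which makes itaconate, 2.73-fold (2.41 to 3.08). HES4, whose gene lies next to ISG15 on chromosome 6 in the opposite direction, was 3.08-fold higher (2.47 to 3.82).

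The higher genes tended to be neighbours and often held the ISRE core. Of 66 higher genes with a RefSeq place, the rule genes left out, 20 lay within 100000 bases of another (30.3%), while 128 of all 6578 placed genes of the comparison (1.95%) lay that close to a gene of the set. Gene families made by duplication, such as MX1 with MX2, IFI44 with IFI44L and GBP1 with GBP2, are among them, and reads that fit both copies could be split or lost between such pairs. An ISRE core was present in the promoter window of 17 of 66 higher genes (25.8%) and 9 of 24 of those at least 4-fold higher (37.5%), against 207 of 6578 genes (3.15%) of the comparison. The GAS core TTCNNNGAA, searched in the same way, was in 6 of 66 (9.09%) and in 418 of 6578 genes (6.35%). The S phase genes held an ISRE core in 0 of 27 windows.

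The lower side held no gene past 0.5-fold at these limits. The 12 smallest folds lay between 0.506 (DESI2) and 0.549, and they included MCM2, a subunit of the replicative helicase, at 0.530 (0.418 to 0.662), E2F8, a repressor of the cell cycle, at 0.537 (0.375 to 0.747), and POLQ, a polymerase of DNA repair, at 0.549 (0.421 to 0.704). Of 28 S phase genes, 22 passed the limit on level, 0 were called in either direction, and 17 had an interval wholly below 1, beside 1525 of all 7370 genes (20.7%). Their summed level was 923 against 1227 CPM, 0.752-fold (0.728 to 0.776). Of 29 G2M genes, 28 passed the limit on level, 24 had an interval below 1 and the summed level was 1719 against 2211 CPM, 0.777-fold (0.759 to 0.796). CDC20 and CCNB1, which drive mitosis, were at 0.654 (0.572 to 0.744) and 0.728 (0.638 to 0.828). Seen from the other side, members were 10.3% (9.11% to 11.5%) of the 2585 kept cells with the smaller share of S and G2M UMIs and 5.22% (4.40% to 6.15%) of the 2584 others, and after thinning 5.67% and 2.48%. Stress and p53 target genes summed to 1.01-fold (0.988 to 1.03), with GDF15, a stress cytokine, the single call at 2.70-fold (2.39 to 3.04). Apoptosis genes summed to 1.07-fold (1.04 to 1.11) with 0 calls.

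Markers of other cells were read for the same groups. Of 26 macrophage and leukocyte markers, 6 were at 0 in members, CD3E among them, and the summed level was 549.7 against 384 CPM, of which LAPTM5, at 435 against 334 CPM, made up most. LYZ, the lysozyme gene, was called at 24.4-fold, but its UMIs came from 0.5% of members, and 1 cell held 92.1% of them. A UMI of PTPRC, CD68, CD14, CSF1R, TYROBP, FCER1G or AIF1 was present in 31 members (7.75%) and 188 comparison cells (5.68%). Without all cells holding such a UMI, 369 members were left, 86 genes were called higher and the antiviral effectors were 3.91-fold higher (3.86 to 3.95). Fibroblast and mural markers summed to 1.02-fold (0.988 to 1.05). COL1A1 and COL1A2 are on this list and were capped in every kept cell, so their part says nothing of identity. DCN, LUM, RGS5 and WT1 were at 0 in the 400 members, and 1 gene of the list was at 0 in the 3308 comparison cells, a larger group. Epithelial markers had a summed level of 4.88 against 0.727 CPM, with KRT8, KRT18 and CDH1 UMIs each in 0.25% of members, that is 1 cell. No doublet caller was run, and without cells above the 95th percentile of UMIs 87 genes were called higher.

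The levels also followed the number of UMIs of the 4 genes across all kept cells. The antiviral effectors summed to 2462 CPM in cells with 0 UMIs, 3321 CPM with 1 or 2, 6936 CPM with 3 to 9 and 17271 CPM with 10 or more. ISG15 stood at 229, 460, 1732 and 7056 CPM over the same cells, and MX1 at 35.3, 62.4, 190 and 573 CPM. Endothelial markers without PECAM1 were at 2516, 2562, 2615 and 2517 CPM. The summed NF-kB targets were 8285, 8567, 9172 and 13336 CPM, and CCL5, at 15.9, 54.6, 164 and 2191 CPM, took part of that step. G2M genes went the other way, with 2211, 2177, 1765 and 1575 CPM, and S phase genes with 1227, 1134, 907 and 972 CPM. The median depth was 10745 UMIs in cells with 3 to 9 UMIs and 10613.5 in those with 10 or more, so these 2 groups differed little in depth.

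**Figure D3:**
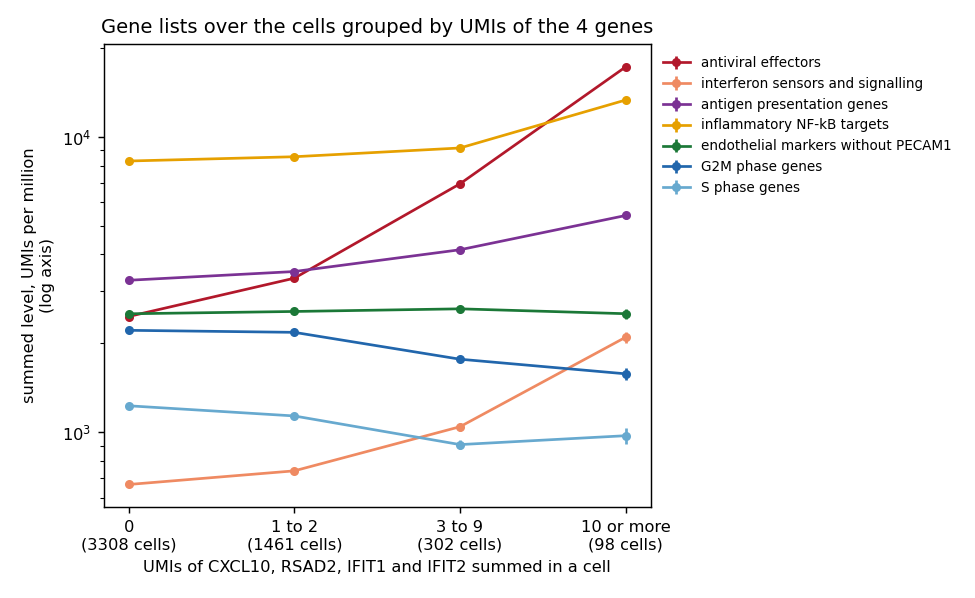
Summed level of gene lists in CPM (log axis) over kept lung ECs grouped by their UMIs of the 4 rule genes, with exact Poisson 95% intervals. Antiviral effectors climb from 2462 to 17271 CPM while endothelial markers without PECAM1 stay between 2516 and 2615 CPM.

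Each of the 4 genes was then left out of the rule in turn, so that its own level was not used to choose the cells. Chosen by the other 3 genes, 383 cells had CXCL10 at 225 CPM (211 to 240), against 2.31 CPM (1.82 to 2.90) in 3343 cells with 0 UMIs of those 3, which is 97.3-fold (76.8 to 125). RSAD2 was 58.0-fold higher (49.2 to 68.6), IFIT1 22.7-fold and IFIT2 19.2-fold in the cells chosen without them. This is a description in the library that proposed the rule.

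CXCL10 split the members. A CXCL10 UMI was present in 88 members and absent from 312, whose median depths were 10878 and 10583 UMIs. Of 7341 genes, 115 were called higher in members with CXCL10 (1.57%) and 39 lower (0.531%), with the same limits as above. The antiviral effectors summed to 16443 against 7305 CPM, 2.25-fold (2.21 to 2.30). CCL5 was 4.26-fold higher (3.96 to 4.58), DDX58 3.80-fold (3.38 to 4.28), GBP1 3.87-fold (3.24 to 4.63), ISG15 3.62-fold (3.50 to 3.75), IRF7 3.23-fold (2.65 to 3.94) and MX1 2.52-fold (2.25 to 2.81). RSAD2, IFIT2 and IFIT1, used by the rule, were 3.32-fold, 3.16-fold and 2.27-fold higher. The 4 rule genes, CXCL10 included, summed to 2688 against 612 CPM, so the split also followed the number of their UMIs. Differences tied to CXCL10 and to that number were not told apart. Endothelial markers, PECAM1 included, summed to 3933 against 4226 CPM, 0.931-fold (0.899 to 0.964), and 1 was called lower.

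Of the 15 genes tied to interferon gamma, 4 were called higher on the CXCL10 side, beside 1.57% of all genes. WARS, at 1.06-fold between all members and comparison cells, was 2.60-fold higher (2.17 to 3.12) in members with CXCL10. Outside that list, CD74 was 3.36-fold higher (2.43 to 4.65). Of the 30 genes listed as NF-kB targets, 24 passed the limit on level in this split. Of these, 5 were called higher, beside 1.57% of all genes. They were CCL5, TNFSF10 at 4.26-fold (3.24 to 5.61), TNFSF13B, the B cell factor BAFF, at 6.35-fold (3.37 to 12.4) on 31 and 16 UMIs, the cytokine IL6 at 5.03-fold (2.51 to 10.4) on 23 and 15 UMIs, and TNFSF15 at 2.14-fold (1.04 to 4.28) on 15 and 23 UMIs. CCL2 was at 1.70-fold (1.62 to 1.78). S phase and G2M genes were 1.28-fold (1.20 to 1.37) and 1.33-fold (1.27 to 1.40) higher in members with CXCL10, the direction opposite to that of members against comparison cells. The genes below were named after their values were seen. MGP, an inhibitor of calcification, was at 0.216-fold (0.106 to 0.396), POSTN, the matrix protein periostin, at 0.435-fold (0.379 to 0.497), JAG1, a Notch ligand, at 0.473-fold (0.311 to 0.695) and CRYAB, a small heat shock protein, at 0.512-fold (0.393 to 0.658). MGP UMIs came from 5.68% and 7.37% of these cells, and 1 cell held 32.6% of all MGP UMIs in members. The median mitochondrial share was 4.11% in members with CXCL10 and 5.81% in those without, and its part in these differences was not tested.

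CXCL10 and CCL5 overlapped in part. A CCL5 UMI was present in 36.4% of members with CXCL10, 18.6% of members without it and 22.5% of all 400 members. Of 88 members with CXCL10 and 90 with CCL5, 32 held both, which is 36.4% of the first and 35.6% of the second. At 10 or more UMIs, 29 members held CXCL10, 36 held CCL5 and 11 held both.

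**Figure D4:**
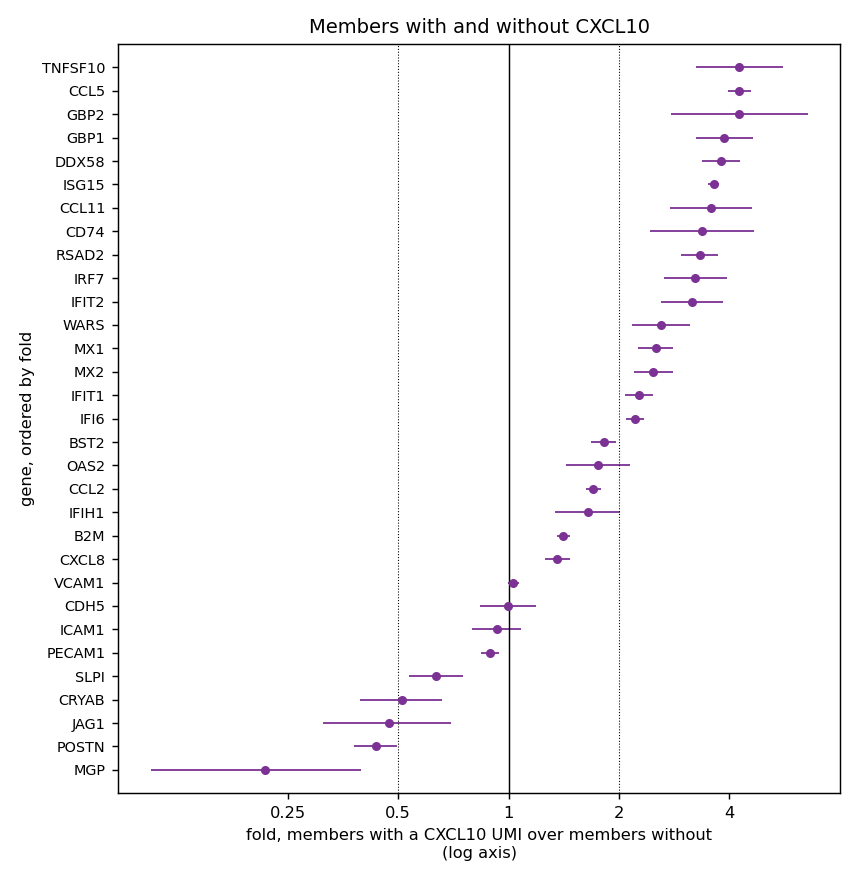
Fold (log axis) of members with a CXCL10 UMI over members without one, with 95% intervals for counting error, for antiviral, chemokine, endothelial and matrix genes. The solid line marks 1 and the dotted lines 0.5 and 2, and interferon genes such as DDX58 at 3.80 lie to the right while POSTN at 0.435 lies to the left.

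The aorta library, which had no part in choosing lung members, gave the same rule a chance to be read elsewhere. Its cells were far deeper, so the limit of 5000 genes left only 75 kept ECs, of which 13 met the rule (17.3%; 9.57% to 27.8%). Without that limit 193 of 399 kept cells met it (48.4%). Their median depth was 55306 UMIs, against 37766.5 in the 90 cells with 0 UMIs of the 4 genes. Thinned to 5000 UMIs, 38 of 387 cells met it (9.82%; 7.04% to 13.2%), against 4.07% (3.53% to 4.66%) of thinned lung cells, where the upper limit on genes stood. Vessel, culture and library cannot be told apart here.

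In the aorta without the limit, 79 of 7599 genes were called higher (1.04%) and 11 lower (0.145%). Of the 85 lung genes, 58 were also called there, which is 68.2% of the lung list and 73.4% of the aorta list. The antiviral effectors were 2.72-fold higher (2.65 to 2.78), with 24 of 46 called. ISG15 was 9.36-fold higher, MX2 9.96-fold, DDX58 6.91-fold, MX1 3.73-fold and IFI6 4.57-fold. CCL5 was 44.3-fold higher (25.3 to 85.8), with 12 UMIs in the comparison cells. With the limit on genes used in the lung, which left 13 and 40 cells, most of these folds were larger and less precise. The antiviral effectors were then 6.43-fold higher (5.94 to 6.96), ISG15 49.5-fold (36.3 to 69.0), DDX58 19.5-fold (8.67 to 51.4), IFI6 11.2-fold (8.87 to 14.3), MX1 10.5-fold (4.82 to 25.1) and MX2 10.3-fold (5.13 to 22.6). CCL5 was 19.5-fold higher (6.69 to 77.3) on 24 and 4 UMIs. Without the limit, S phase genes summed to 0.752-fold (0.729 to 0.775) in the aorta as well, while G2M genes were at 1.00-fold (0.974 to 1.03). With it, they were at 0.984-fold (0.836 to 1.15) and 0.881-fold (0.751 to 1.03). When the aorta cells were chosen on thinned counts, G2M genes were at 0.608-fold (0.532 to 0.694) and antiviral effectors at 4.90-fold (4.66 to 5.14).

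IFNB1 was again seen only in cells with 10 or more UMIs of the 4 genes, where the lowest lung cell held 19. In the aorta library, 5 of 1185 cells held 188 IFNB1 UMIs, of which 137 were in 1 cell and 45 in another. These 5 cells carried between 544 and 1272 UMIs of the 4 genes, and 2 of them passed the limits for kept ECs other than that on genes. The other 3 held 3 or more collagen UMIs.

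**Figure D5:**
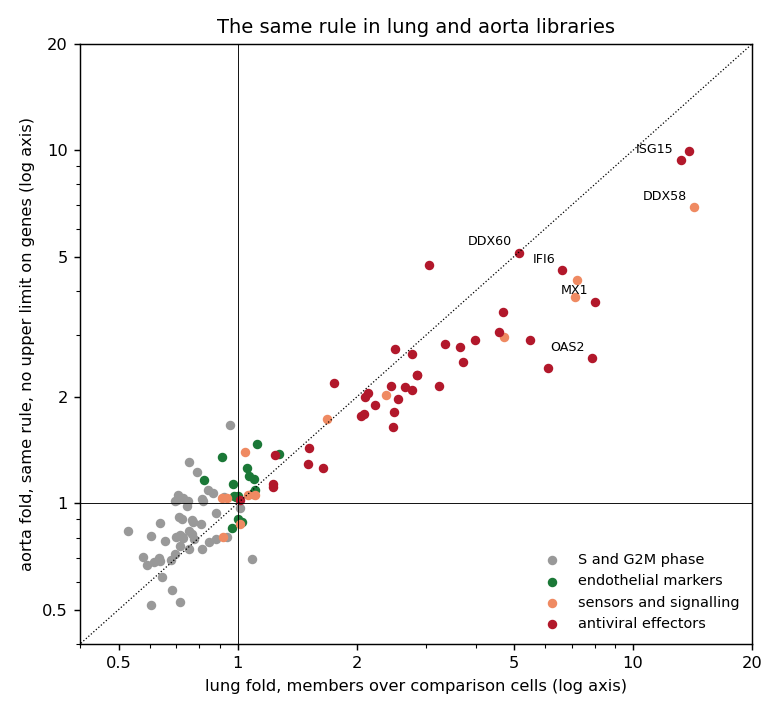
Fold of cells meeting the rule over cells with 0 UMIs of the 4 genes in the lung (horizontal, log axis) and in the aorta without the upper limit on genes (vertical, log axis), each point 1 gene that passed the limit on level in the lung. The dotted line marks equal folds. Antiviral effectors lie above 1 in both libraries, with ISG15 at 13.2 and 9.36, and endothelial markers lie around 1.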

How the data were processed

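Counts of UMIs were deposited by the authors for 1 library of cultured lung ECs and 1 of cultured aorta ECs, made with the 3′ v3 chemistry and Cell Ranger 3.0.2 on Sscrofa11.1, unnormalized and before limits on cells. The lung library held 57213236 UMIs and the aorta library 46080859. Of 22804 features, 7821 had only an identifier, and a table of names gave 1051 of these a symbol. The members, the gene lists and the comparisons were chosen with earlier results of these data known, and no pattern is offered as independent support. UMIs were summed over the cells of a group and divided by their total (CPM), with exact Poisson 95% intervals, exact conditional binomial intervals for folds and Clopper-Pearson intervals for shares, in Python 3.11.15 with numpy 2.4.6, scipy 1.17.1 and pandas 2.3.3. A count of 0 was given a limit of 3 counts. Because UMIs of 1 cell move together, true uncertainty is wider than these intervals. The steps were tested on simulated data. Genes named were the 4 rule genes, ISG15, MX1, members of a list where it is described, and the 25 largest and 12 smallest folds among genes with a mean of 10 CPM or more, seen in 10% or more of cells in the higher group, with an interval not including 1, plus genes said to be chosen later. No doublet caller was run here; the study filtered doublets in its own analysis, but the deposited counts still hold cells beyond its other limits. Free RNA was not removed. Promoters and places are from RefSeq by symbol, while counts rest on Ensembl models. Some genes and sequences are not reported here.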

Additional observations from a re-analysis of the deposited data

Results flagged for a closer look

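Signal of the 4 genes was also present in lung cells that no comparison above used. Of 134 lung cells with under 3 PECAM1 UMIs and at most 2 collagen UMIs, 12 held 3 or more UMIs of the 4 genes, a share of 8.96% (4.71% to 15.1%). Of 26 lung cells with 5000 or more genes, 4 did so, a share of 15.4% (4.36% to 34.9%). The intervals of both shares include the 7.74% of kept lung ECs that met the rule, so neither is shown to differ from it, and the second rests on 4 cells. Cells with 20 or more collagen UMIs and under 3 PECAM1 UMIs met the same limit in 22 of 296 cases (7.43%; 4.72% to 11.04%), and cells at or over the mitochondrial limit in 1 of 238.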

How the results depend on the processing

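With members at 2 or more UMIs of the 4 genes the share was 14.8% and the antiviral fold 2.83, and at 5 or more UMIs 3.89% and 5.31, with 8 genes called lower. Against all other kept cells the antiviral fold was 3.44. Thinning to 5000 UMIs before the rule gave a share of 4.07%, an antiviral fold of 5.09 and 60 genes called lower. In the shallower 2585 cells these were 5.38%, 4.16 and 67, and in the deeper 2584 cells the share was 10.1% with 11 genes called lower. Without cells above the 95th percentile of UMIs the antiviral fold was 4.06 with 2 genes lower, and without cells below the 10th or above the 90th percentile, chosen after seeing the data, 4.10 with 14 lower. It was 3.79 with no upper limit on genes and 3.91 with 1 gene lower without leukocyte UMIs. With 0 collagen UMIs, and with CXCL10 left out of the rule, 4 genes were called lower. In cells with fewer cell cycle UMIs the share was 10.3%, the antiviral fold 3.49 and 11 genes were lower. At a mean CPM of 2 or more, 183 genes were called higher and 49 lower, and at 50 or more 42 were higher. So the absence of lower genes holds for some settings only, with 0 to 67 over all of them. The aorta share was 48.4% without the upper limit on genes. Of 15 other folds, ISG15 ran from 8.49 to 21.2 and MX1 from 5.48 to 11.9, and none whose interval excluded 1 crossed it. Over these folds and 4 shares, 140 values stayed inside the first interval and 89 did not.

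Aorta cells thinned to 5000 UMIs were added after seeing the data. No paired analysis was possible because each vessel has 1 library and no test was made. The limits are 1 library per vessel, membership that depends on depth, symbols missing for 6770 features and free RNA left in the counts.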
